A study of Mus musculus with 6 samples.

Results

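Genes of fatty acid oxidation and ketone body formation, with targets of the fatty acid receptor PPARalpha, were followed through pregnancy in the mouse liver. The set was a fixed list of 35 genes. A gene was measured where at least 1 probe set (a group of short DNA probes for 1 transcript) was annotated to that gene alone, and the brightest such probe set was used. This left 34 of the 35 genes, among 18193 genes tested in all. Cyp4a10 was left out because its annotated probe set also names Cyp4a31. The samples were livers of CYP2D6 transgenic mice on the C57BL/6 background, which carry a human drug-metabolising P450 gene. There were 2 samples before pregnancy, 2 on day 21 of pregnancy and 2 on day 7 postpartum, each on 1 Affymetrix mouse array. The animals of all 3 groups, the pre-pregnancy controls included, carried the transgene, so no comparison with non-transgenic mice can be made. The sources used here do not give the transgene's promoter, the animals' ages, feeding, the hour of collection or whether tissue was pooled.

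Long-chain fatty acids reach the mitochondrial matrix as carnitine esters, are shortened there by beta-oxidation, and in the fasting liver yield ketone bodies for export. Peroxisomes shorten very long chains, and P450 enzymes of the Cyp4a group oxidise the far (omega) end of the chain. PPARalpha is a nuclear receptor that binds fatty acids and, paired with RXR, switches on many of these genes. It binds DR1 elements, a pair of AGGTCA-like sites in the same orientation separated by a single base. In fasting, PPARalpha and the membrane-tethered factor CREB-H (Creb3l3) act on the hormone gene Fgf21.

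Values are log2 intensities, so a difference of 1 is a doubling. The deposited table does not state its scale, and the log2 base was inferred from values that run from 2.69 to 15.05. Array medians lay between 5.09 and 5.15. Across genes, the correlation between replicates was 0.997 (pre-pregnancy), 0.994 (pregnant) and 0.996 (postpartum). The number of arrays, 2 per stage, limits the precision. The labels call the replicates biological without saying that each is a separate animal, so p-values measure the spread between these samples. The 7 measured hepatocyte markers averaged 13.67 to 13.79 on the 6 arrays, while adipocyte (4.56 to 4.81) and pancreatic acinar markers (4.7 to 4.94) were dim. For the genes described here the 2 pregnant arrays stood apart from each other. The gap between them was over 0.5 on the log2 scale for 11 of the 34 genes (32.4%), against 4.98% of all genes tested. Both pregnant values are therefore given for each of these 11 genes. Where 1 array of a stage is left out below, the fit holds no spread between that stage's samples. A call gained in such a fit does not measure that spread.

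Of the 34 genes, 11 differed between stages in at least 1 comparison and 23 were not called. A gene was called where limma's moderated test gave a Benjamini-Hochberg adjusted p under 0.05 over all 18193 genes. In pregnancy against pre-pregnancy 5 members were called higher (Fgf21, Eci3, Acot2, Acads and Crat), where 5.46% of all genes were. In the same comparison 2 were called lower (Acot4 and Cyp4a12a), against 8.25% of all genes. Postpartum against pregnancy, Eci3 was called higher and Fgf21 and Creb3l3 lower, 1 and 2 members against 2.41% and 0.879% of all genes. Postpartum against pre-pregnancy, Eci3 and Acads were called higher, and Ppara, Cpt1a, Bdh1 and Cyp4a12a lower, 2 and 4 members against 3.91% and 3.75%. In all, 20.6%, 8.82% and 17.6% of the members were called in these comparisons, against 13.7%, 3.29% and 7.66% of all genes. Bright genes were called more often. With dim genes left out the shares were 21.2% of members and 21% of genes in pregnancy, 12.1% and 5.47% from pregnancy to postpartum, and 15.2% and 13.5% from pre-pregnancy to postpartum. The first and last of these shares lay near those of all genes. Arrays of the 2 stages did not overlap for 13 members that were higher and 6 that were lower in pregnancy, where 33.6% and 26% of all genes did so. From pregnancy to postpartum this held for 2 and 14 members (25.1% and 25% of all genes), and from pre-pregnancy to postpartum for 9 and 15 (30% and 22.6%). Over the 34 members the median difference was 0.052 in pregnancy, -0.188 from pregnancy to postpartum and -0.082 between the first and last stage, where all genes had medians of 0.045, -0.01 and 0.025. Each pair of comparisons shares the arrays of a stage, so the 3 sets of values are not independent. With arrays centred on their medians or quantile normalized again, the members called higher and lower in pregnancy were 6 and 1, and 5 and 1. Postpartum against pregnancy they were 1 and 4, and 1 and 3. Of all genes called in that comparison 73.3% were higher, against 64% after centring and 62.5% after quantile normalization.

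**Figure D1:**
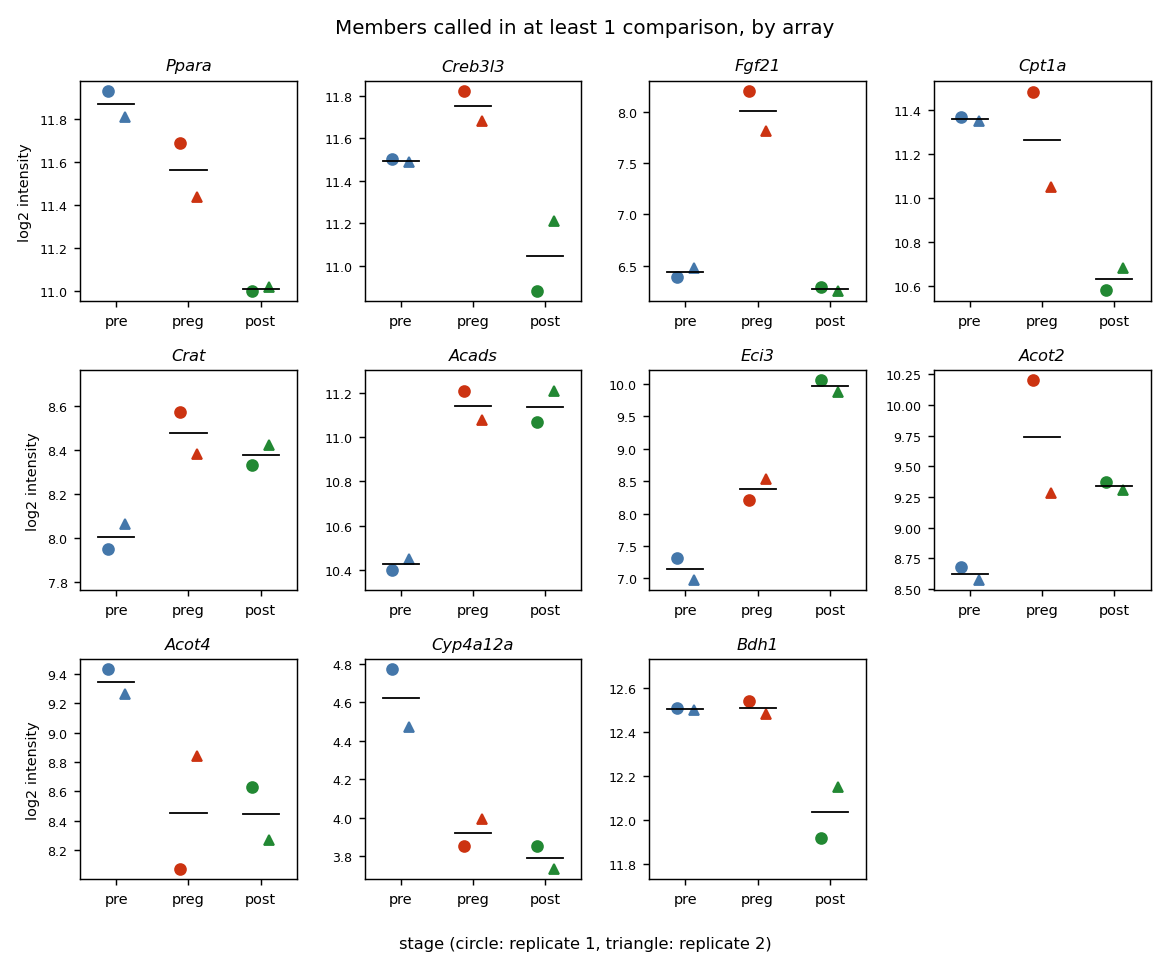
Log2 intensity (vertical axes, a separate range for each gene) of the 11 members called in at least 1 comparison, by stage, with replicate 1 as a circle, replicate 2 as a triangle and the mean as a line. Fgf21 is high only at day 21 of pregnancy, at 8.2 and 7.81, Eci3 is highest postpartum, at 10.05 and 9.87, and Acot2 shows a wide gap between the pregnant arrays.

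Promoter windows are printed for 4 members, from 250 bases before to 50 after the start of the gene, from RefSeq on build GRCm38.p6, 5′ to 3′ on the gene's own strand. Fgf21 and Eci3 are shown because their calls held with each array left out. Fabp1 is shown as the member with the closest DR1 match and Acot4 as the member with a match to both motifs searched. Capitals mark letters matching DR1 (AGGTCANAGGTCA, at most 2 mismatches, N for any base) or the E-box CACGTG, bound by clock factors among others, on either strand. Of the 34 measured genes and Cyp4a10, 29 had a window in the table.
Fgf21 (chr7:45615441-45615740, minus strand): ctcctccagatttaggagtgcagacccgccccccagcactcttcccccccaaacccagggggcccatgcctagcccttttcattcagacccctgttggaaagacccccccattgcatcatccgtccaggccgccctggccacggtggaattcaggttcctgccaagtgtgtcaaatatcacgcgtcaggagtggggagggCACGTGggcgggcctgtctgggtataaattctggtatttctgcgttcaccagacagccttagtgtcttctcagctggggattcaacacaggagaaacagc
Eci3 (chr13:34963760-34964059, minus strand): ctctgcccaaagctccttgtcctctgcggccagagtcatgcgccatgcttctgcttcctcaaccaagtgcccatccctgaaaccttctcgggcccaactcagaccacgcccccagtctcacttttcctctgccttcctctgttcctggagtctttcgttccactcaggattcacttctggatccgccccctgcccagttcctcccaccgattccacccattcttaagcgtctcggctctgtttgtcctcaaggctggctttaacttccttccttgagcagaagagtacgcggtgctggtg
Acot4 (chr12:84038129-84038428, plus strand): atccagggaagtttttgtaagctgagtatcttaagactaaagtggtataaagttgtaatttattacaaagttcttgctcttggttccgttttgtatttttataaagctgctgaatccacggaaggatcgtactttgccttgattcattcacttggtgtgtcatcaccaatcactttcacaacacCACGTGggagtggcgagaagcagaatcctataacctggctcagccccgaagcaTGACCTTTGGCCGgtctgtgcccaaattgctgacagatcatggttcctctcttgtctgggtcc
Fabp1 (chr6:71199629-71199928, plus strand): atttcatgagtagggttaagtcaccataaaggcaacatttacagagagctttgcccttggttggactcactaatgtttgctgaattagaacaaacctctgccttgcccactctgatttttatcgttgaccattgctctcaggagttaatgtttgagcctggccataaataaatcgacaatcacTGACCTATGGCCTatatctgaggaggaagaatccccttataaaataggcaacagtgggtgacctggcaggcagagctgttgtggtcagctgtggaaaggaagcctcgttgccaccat
The Fabp1 window holds TGACCTATGGCCT at positions -67 to -55 from the start, on the reverse strand, with 1 mismatch. Of 32851 windows, 0.554% hold DR1 with at most 1 mismatch. Allowing 2 mismatches, 3.86% of windows hold a match, and so do those of Fabp1, Slc25a20, Creb3l3 and Acot4, where TGACCTTTGGCCG lies at -13 to -1. CACGTG stands in 7.15% of windows and in 3 members, Fgf21 (-50 to -45), Acot4 (-66 to -61) and Slc27a1. These letters are not in the Eci3 window. A match describes the sequence and does not show that a factor binds there.

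The regulators did not move as a block. Fgf21, the hepatic hormone of the fasting response, stood at 6.39 and 6.48 (pre-pregnancy), 8.2 and 7.81 (pregnant) and 6.29 and 6.25 (postpartum). Both pregnant arrays lay above all 4 others. Fgf21 rose 2.97-fold in pregnancy (log2 difference 1.57 ± 0.140 SE, adjusted p = 0.00128) and fell 3.33-fold postpartum (-1.735 ± 0.140, adjusted p = 0.00249). With each of the 6 arrays left out in turn both calls held, at 1.375 to 1.765 and -1.93 to -1.54. The postpartum level differed from the pre-pregnancy level by -0.165 (95% interval -0.49 to 0.16, adjusted p = 0.558). The E-box printed above lies just before the Fgf21 start.

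Ppara itself, the receptor gene, stood at 11.93 and 11.81 (pre-pregnancy), 11.69 and 11.44 (pregnant) and 11 and 11.02 (postpartum). The arrays of the 3 stages did not overlap, and both later stages were lower than the first. Postpartum Ppara was 1.82-fold lower than before pregnancy (-0.86 ± 0.119, adjusted p = 0.00917), a call that failed when pre-pregnancy replicate 1 (adjusted p = 0.103) or postpartum replicate 2 (0.0574) was left out. Its 2 other probe sets differed by -0.5 and -0.845 in the same comparison. The intermediate steps of -0.305 in pregnancy (adjusted p = 0.127) and -0.555 postpartum against pregnancy (adjusted p = 0.0509) were not called. The second of these was called with arrays centred on their medians (adjusted p = 0.0328).

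Creb3l3 stood at 11.5 and 11.49, 11.82 and 11.68, and 10.88 and 11.21 at the 3 stages in order. It fell 1.63-fold postpartum against pregnancy (-0.705 ± 0.132, adjusted p = 0.0346), and with any array left out this was not called (adjusted p = 0.0506 to 0.156). Pdk4, the kinase that shuts off pyruvate dehydrogenase when fat is burned, showed no stage difference that passed the test. Its values were 7.15 and 7.66 in the first stage, 7.72 and 6.28 in the second, and 7.71 and 7.29 in the last. The pregnant arrays differed 2.71-fold, and all 3 stages overlapped. The Pdk4 difference in pregnancy was -0.405 (95% interval -1.36 to 0.55), with -1.125 when pregnancy replicate 1 was left out (adjusted p = 0.0382) and 0.315 when replicate 2 was (0.475). No direction can thus be given for Pdk4.

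Neither uptake and binding gene was called in any of the 3 comparisons. Fabp1, the abundant fatty acid binding protein of hepatocytes, lay between 14.47 and 14.61 on all 6 arrays, near the top of the measured range. Its differences were -0.08, 0.05 and -0.03 in the 3 comparisons in order. Slc27a1, a fatty acid transport protein gene better known from muscle and fat, lay between 5.86 and 6.15. Its difference in pregnancy was 0.175 (95% interval -0.07 to 0.42), and its other probe set stood at -0.14.

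The carnitine shuttle carries acyl groups across the mitochondrial membranes. Cpt1a, the outer-membrane transferase that sets the rate of entry, stood at 11.37 and 11.35 (pre-pregnancy), 11.48 and 11.05 (pregnant) and 10.58 and 10.68 (postpartum). The postpartum arrays lay below the other 4. Cpt1a was 1.66-fold lower postpartum than before pregnancy (-0.73 ± 0.147, adjusted p = 0.0272). The call was lost with either array from before pregnancy left out (adjusted p = 0.186 and 0.121) or either postpartum array (0.114 and 0.116). Against pregnancy the postpartum difference was -0.635 (adjusted p = 0.0611), with -0.85 when pregnancy replicate 2 was left out (0.0262) and -0.42 when replicate 1 was (0.123). The other Cpt1a probe sets were also lower postpartum than before pregnancy, by -0.5 and -0.69, and were not called.

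Crat, the transferase for short acyl groups, rose 1.39-fold in pregnancy, from 7.95 and 8.06 to 8.57 and 8.38 (0.47 ± 0.113, adjusted p = 0.033). It stayed at 8.33 and 8.42 postpartum, 0.37 above the first stage (adjusted p = 0.0913). The rise was called with pregnancy replicate 2 left out (adjusted p = 0.0487) and with no other array left out (0.0547 to 0.191). The 2 other Crat probe sets stood at 0.83 (adjusted p = 0.00949) and 0.26 (0.156) in pregnancy. Postpartum against pre-pregnancy they stood at 0.64 (adjusted p = 0.0312) and 0.15 (0.499), so that call depends on the probe set. The exchanger Slc25a20 (0.33, adjusted p = 0.19) and the inner-membrane transferase Cpt2 (0.025, adjusted p = 0.912) were not called in pregnancy or in the other comparisons.

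Of the 10 enzymes of mitochondrial beta-oxidation, 1 rose in pregnancy, 0 fell and 9 were not called, and their median difference was 0.05. Acads, the short-chain acyl-CoA dehydrogenase, was the exception. Its arrays stood at 10.4 and 10.45 (pre-pregnancy), 11.21 and 11.08 (pregnant) and 11.07 and 11.21 (postpartum), so that both later stages lay above the first. Acads rose 1.65-fold in pregnancy (0.72 ± 0.108, adjusted p = 0.00729) and postpartum was still 1.64-fold above pre-pregnancy (0.715 ± 0.108, adjusted p = 0.0116). Postpartum it differed from pregnancy by -0.005 (95% interval -0.25 to 0.24). The rise in pregnancy was not called without pre-pregnancy replicate 1 (adjusted p = 0.073). The postpartum call was lost without that array (0.115), pre-pregnancy replicate 2 (0.0612) or postpartum replicate 2 (0.0836).

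The dehydrogenases for longer chains did not follow Acads. In pregnancy the very-long-chain Acadvl differed by 0.24 (95% interval 0.02 to 0.46, adjusted p = 0.135), the long-chain Acadl by -0.02 (-0.25 to 0.21) and the medium-chain Acadm by -0.065 (-0.39 to 0.26). Whether Acads differs from these genes was not tested. The trifunctional protein has an alpha chain, Hadha, which stood at 10.99 and 11.08 before pregnancy and at 11.66 and 11.34 in pregnancy. The Hadha arrays of these stages did not overlap, and the difference of 0.465 just missed the threshold (adjusted p = 0.0549). It was called without pregnancy replicate 2 (0.625, adjusted p = 0.0397), with dim genes left out (0.049) and with arrays centred on their medians (0.0343). Leaving out pregnancy replicate 1 gave 0.305 (0.173), and with any other array left out it was not called either (0.0805 to 0.252). The beta chain gene Hadhb, which starts close to Hadha in the opposite direction, differed by 0.075 (adjusted p = 0.746). Eci1, an isomerase for unsaturated chains, differed by 0.4 (adjusted p = 0.0869) in pregnancy and by -0.385 (0.16) postpartum against pregnancy. The dehydrogenase Hadh (0.025), the thiolase Acaa2 (-0.015) and the isomerase Ech1 (-0.11), which is found in both mitochondria and peroxisomes, were within 0.11 of pre-pregnancy on day 21. Postpartum they stood at 0.005, -0.18 and -0.245 against pre-pregnancy, and were not called. An Acaa2 probe set that was not the brightest was called lower postpartum than before pregnancy (-0.695, adjusted p = 0.0123), where the brightest was not called, so this fall is not settled.

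Postpartum against pregnancy the 10 enzymes had a median difference of -0.175, with a range from -0.42 to -0.005, and none (0) was called. The number at an adjusted p under 0.1 was likewise 0. At an unadjusted p under 0.05, 2 of the 10 were lower (Hadhb and Eci1), where 8.78% of all genes were.

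**Figure D2:**
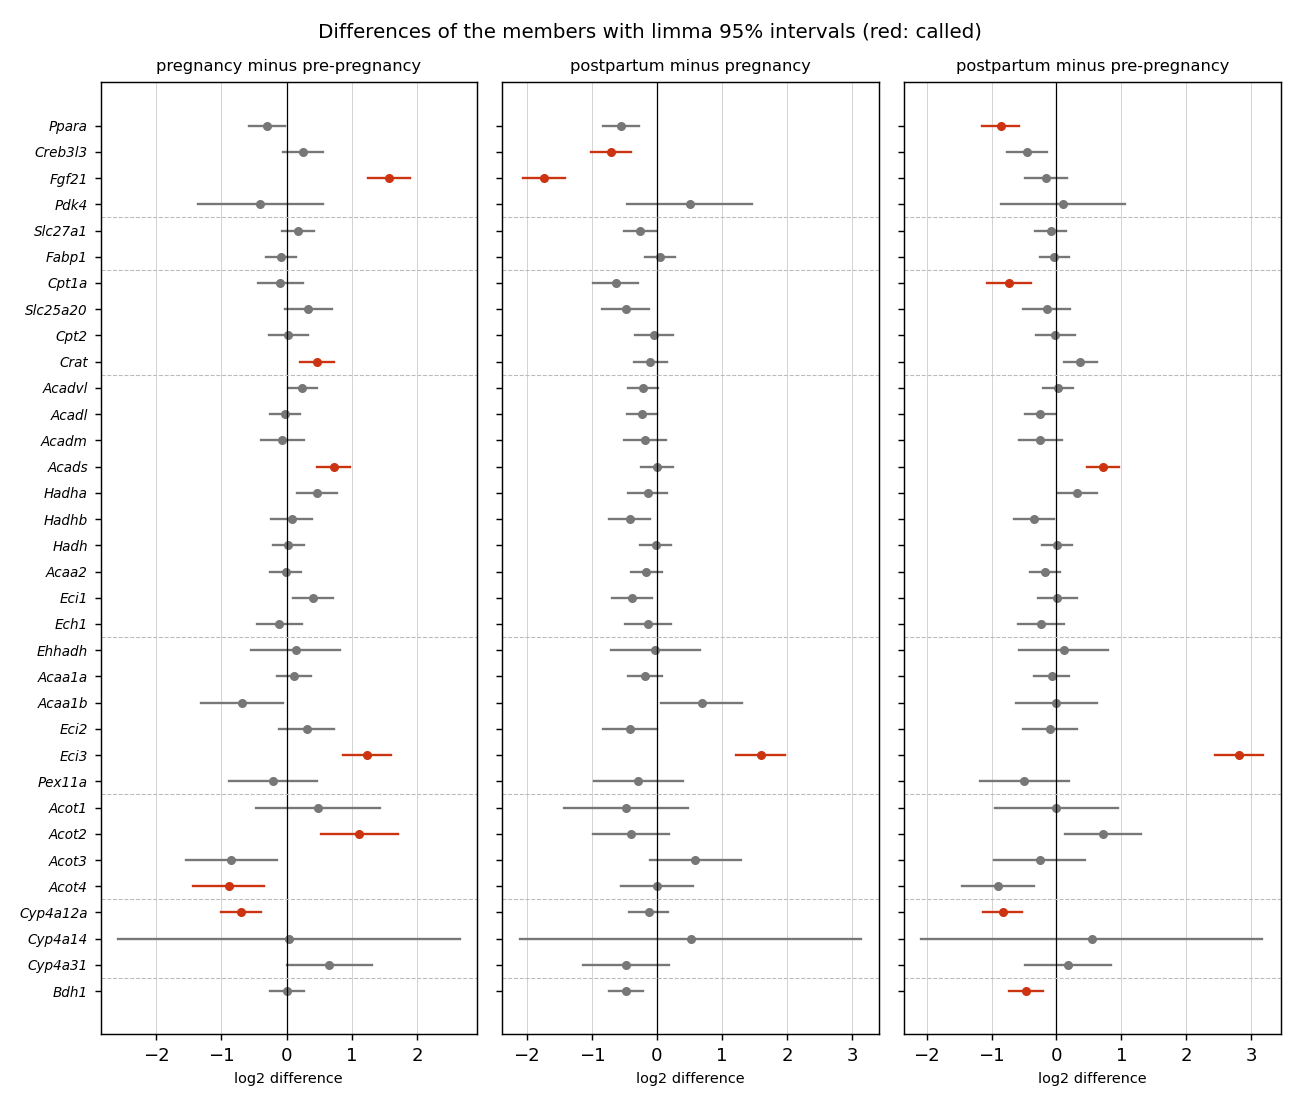
Log2 differences of the 34 members (dots) with limma's 95% intervals (bars) in the 3 comparisons, in order of role from regulators at the top to ketone synthesis at the bottom, with calls in red. Eci3 lies to the right in each panel, at 1.23, 1.59 and 2.82, and the bar of Cyp4a14 is the widest, from -2.59 to 2.65 in the first panel.

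Peroxisomal genes held the member with the widest stage difference in the probe sets used. Eci3, a peroxisomal enoyl-CoA isomerase that moves double bonds so that unsaturated chains can be shortened, stood at 7.31 and 6.97 before pregnancy. It reached 8.21 and 8.53 in pregnancy and 10.05 and 9.87 postpartum, with no overlap between stages. Eci3 rose 2.35-fold in pregnancy (1.23 ± 0.159, adjusted p = 0.00423) and a further 3.01-fold postpartum (1.59 ± 0.159, adjusted p = 0.00406). Postpartum it was 7.06-fold above pre-pregnancy (2.82 ± 0.159, adjusted p = 0.000862), and the 3 calls held with each array left out. Eci2, its close relative, stood at 11.97 and 11.77, 12.45 and 11.91, and 11.68 and 11.85, with differences of 0.31, -0.415 and -0.105 that were not called.

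Other peroxisomal members were split between the pregnant arrays. Ehhadh, the bifunctional enzyme and a classic PPARalpha target, stood at 13 and 11.91 in pregnancy, against 12.25 and 12.38 before and 12.42 and 12.44 after. One pregnant array was thus the highest of the 6 and the other the lowest. The mean difference was 0.14 (95% interval -0.54 to 0.82), and leaving out pregnancy replicate 2 gave 0.685 (adjusted p = 0.0285) where leaving out replicate 1 gave -0.405 (0.0874). Acaa1b, a peroxisomal thiolase, stood at 13.57 and 12.57 in pregnancy and within 13.73 to 13.78 on the other 4 arrays. Both pregnant arrays of Acaa1b lay below the rest, and the difference of -0.69 was not called (adjusted p = 0.13). Leaving out pregnancy replicate 1 gave -1.19 (0.004), and leaving out replicate 2 gave -0.19 (0.365). Pex11a, which drives peroxisome division, stood at 10.71 and 10.25, 10.77 and 9.77, and 10 and 9.97. The thiolase Acaa1a lay between 9.32 and 9.65 on the 6 arrays. None (0) of these 4 genes was called in the 3 comparisons by limma, and at an unadjusted p under 0.05 Acaa1b passed in 2 of them, the first and the second, where 31% and 20.7% of all genes passed.

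Acyl-CoA thioesterases split acyl-CoA into free fatty acid and coenzyme A, and the 4 members form a gene cluster. Acot1, the cytosolic form, stood at 9.02 and 9.09 (pre-pregnancy), 10.32 and 8.75 (pregnant) and 8.96 and 9.15 (postpartum). Its pregnant arrays differed 2.97-fold, on either side of the other 4. Acot2, the mitochondrial form, stood at 8.68 and 8.57, 10.2 and 9.28, and 9.37 and 9.31. Acot2 rose 2.17-fold in pregnancy (1.115 ± 0.254, adjusted p = 0.028), and was at 0.655 without pregnancy replicate 1 (0.0244) and 1.575 without pregnancy replicate 2 (0.00234). The call was lost with either array from before pregnancy left out (adjusted p = 0.152 and 0.129). A dimmer Acot2 probe set stood at 0.55 (adjusted p = 0.286), so the size of the rise is not settled.

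The peroxisomal forms had lower means in pregnancy. Acot4 stood at 9.43 and 9.26 (pre-pregnancy), 8.07 and 8.84 (pregnant) and 8.63 and 8.27 (postpartum). It fell 1.85-fold in pregnancy (-0.89 ± 0.239, adjusted p = 0.047), a call lost with each array left out except pregnancy replicate 2 (-1.275, adjusted p = 0.013), and also lost with the replicate number as a block (0.0573). Without pregnancy replicate 1 the Acot4 difference was -0.505 (0.119), and its second probe set stood at -0.68 (0.145). Acot3 stood at 11.57 and 11.6, 10.19 and 11.28, and 11.48 and 11.17. Its pregnancy difference of -0.85 was not called (adjusted p = 0.103), and it was -0.305 without pregnancy replicate 1 (0.253) and -1.395 without pregnancy replicate 2 (0.00746). Acot1 and Acot2 were thus higher in pregnancy replicate 1 than in replicate 2, and Acot3 and Acot4 lower. Similar sequences in this family may share probes, and the Acot3 probe set carries the suffix that Affymetrix gives to sets matching more than a single transcript.

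**Figure D3:**
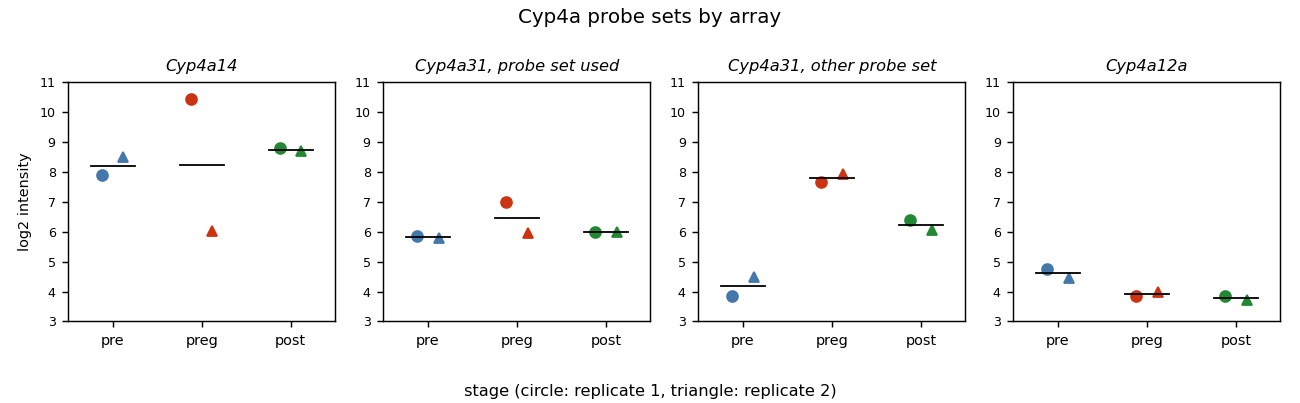
Log2 intensity on a common vertical axis, by stage, for Cyp4a14, the 2 probe sets of Cyp4a31 and Cyp4a12a, with replicate 1 as a circle, replicate 2 as a triangle and the mean as a line. The pregnant arrays of Cyp4a14 stand at 10.44 and 6.03, and the Cyp4a31 probe set that was not used rises from 3.86 and 4.5 to 7.65 and 7.93.

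The omega-hydroxylases held the most unsettled values. Cyp4a14, a strongly PPARalpha-driven omega-hydroxylase, stood at 7.9 and 8.51 (pre-pregnancy), 10.44 and 6.03 (pregnant) and 8.81 and 8.69 (postpartum). The pregnant arrays were the highest and the lowest of the 6, and their gap of 4.41, which is 21.3-fold, was the widest of all 18193 genes. The mean difference in pregnancy was 0.03 (95% interval -2.59 to 2.65, adjusted p = 0.988). Without pregnancy replicate 1 it was -2.175 (adjusted p = 0.00535), whereas leaving out pregnancy replicate 2 gave 2.235 (0.00633). Neither direction can thus be given for Cyp4a14 in pregnancy.

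Cyp4a31 had probe sets that disagreed. The brighter, by 6.1 against 6.07 in the mean of all arrays, stood at 5.86 and 5.78, 7 and 5.95, and 6 and 6. Its difference in pregnancy was 0.655 (95% interval 0 to 1.31, adjusted p = 0.162), with 1.18 when pregnancy replicate 2 was left out (0.00551) and 0.13 when replicate 1 was (0.52). The other stood at 3.86 and 4.5 (pre-pregnancy), 7.65 and 7.93 (pregnant) and 6.41 and 6.06 (postpartum), with no overlap between the stages. That probe set rose by 3.61 ± 0.218 in pregnancy (adjusted p = 0.000264 over all probe sets), fell by 1.555 postpartum (0.0148) and stayed 2.055 above pre-pregnancy (0.00325). Before pregnancy its replicate 1 lay near that array's lower quartile (3.91). Replicate 2 lay between the lower quartile (3.93) and the median (5.13) of its array. The fold of this probe set is thus imprecise. Both probe sets had their highest mean in pregnancy, but the size and the call depend on the probe set. In the brighter this rests on pregnancy replicate 1, without which postpartum differed from pregnancy by 0.05. A further probe set names both Cyp4a10 and Cyp4a31, so similar sequences may share probes here too.

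Cyp4a12a, an omega-hydroxylase known for its higher level in males, was dim. Its arrays stood at 4.77 and 4.47 (pre-pregnancy), 3.85 and 3.99 (pregnant) and 3.85 and 3.73 (postpartum), which is close to background after the first stage. It was called lower in pregnancy (adjusted p = 0.0148) and postpartum against pre-pregnancy (0.013). The later stages lie at or below the arrays' lower quartiles, so the size of the fall is not given. Without pre-pregnancy replicate 1 both calls were lost (adjusted p = 0.111 and 0.116), as was the first without pregnancy replicate 1 (0.0529) and the second without postpartum replicate 2 (0.0897).

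Of the ketone genes, Bdh1, which reduces acetoacetate to beta-hydroxybutyrate, was the member measured. It stood at 12.51 and 12.5 (pre-pregnancy), 12.54 and 12.48 (pregnant) and 11.92 and 12.15 (postpartum). The first 2 stages were level, with a difference of 0.005 (95% interval -0.26 to 0.27), and both postpartum arrays were lower. Bdh1 was 1.39-fold lower postpartum than before pregnancy (-0.47 ± 0.113, adjusted p = 0.0474), and the call was lost with each array left out (adjusted p = 0.0541 to 0.239) and with the replicate number as a block (0.0547). Its second probe set stood at -0.535 (adjusted p = 0.0968).

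Other genes of the pathway came from a list of 60, of which 54 were measured. In pregnancy 4 rose and 5 fell, where 5.46% and 8.25% of all genes did. Postpartum against pregnancy 3 rose and 5 fell (2.41% and 0.879% of all genes). Postpartum against pre-pregnancy 3 rose and 6 fell (3.91% and 3.75%). These shares of all genes also apply to the counts for the lists below. In the ketone list, Acat1, the mitochondrial thiolase that makes acetoacetyl-CoA, stood at 13.17 and 13.21, 13.27 and 12.92, and 12.29 and 12.36. Acat1 was 1.82-fold lower postpartum than before pregnancy (-0.865, adjusted p = 0.0119), a call lost with any pre-pregnancy or postpartum array left out (0.0583 to 0.112). Acat1 was lower than in pregnancy as well (-0.77, adjusted p = 0.0275), a call kept with pregnancy replicate 2 left out and lost with each other array left out (0.0559 to 0.136). Its 2 other probe sets were called lower in both comparisons, at -1.05 and -0.815 against pre-pregnancy. Bdh2, a dehydrogenase of short-chain hydroxy compounds, fell from 8.28 and 7.96 to 6.85 and 6.7 in pregnancy (-1.345, adjusted p = 0.00184) and rose to 7.72 and 7.66 postpartum (0.915, 0.0155). Its fall held with each array left out, at -1.505 to -1.185, and its rise was lost without pregnancy replicate 2 (0.0614) or either postpartum array (0.0898 and 0.0787). Oxct1, which lets tissues burn ketones, fell in pregnancy (-0.595, adjusted p = 0.0412). With an array left out this Oxct1 fall was called without pregnancy replicate 1 alone (-0.825, 0.0124), and without pregnancy replicate 2 it was -0.365 (0.126). The monocarboxylate carrier Slc16a7 was lower postpartum than before pregnancy (-0.61, adjusted p = 0.0377), a call lost with any pre-pregnancy or postpartum array left out (0.0811 to 0.253).

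Among other peroxisomal genes, the branched-chain oxidase Acox2 rose from 10.81 and 11.07 to 12.18 and 11.83 in pregnancy (1.065, adjusted p = 0.00518), a call lost without pre-pregnancy replicate 1 (0.0646). Hacl1, of alpha-oxidation, fell in pregnancy (-0.445, adjusted p = 0.0474, and not called without any pre-pregnancy or pregnancy array, 0.109 to 0.206). Scp2 was lower postpartum than before pregnancy (-0.56, adjusted p = 0.0233), but another Scp2 probe set was higher (0.67, 0.0138), so its direction is not settled. The Scp2 call was also lost with any pre-pregnancy or postpartum array left out (0.0904 to 0.171). Of the omega-oxidation list, Cyp4v3 fell in pregnancy (-0.58, adjusted p = 0.0111) and was lower postpartum than before pregnancy (-0.44, 0.038), and a second probe set was called in both (-0.78 and -0.585). The first Cyp4v3 call was lost with either array from before pregnancy left out (0.0774 and 0.064), and the second also without either postpartum array (0.115 to 0.198). Cyp4f14 rose postpartum against pregnancy (0.64, adjusted p = 0.0204), a call lost with each array left out (0.0537 to 0.13). Acacb, whose product malonyl-CoA inhibits Cpt1a, stood at 9.3 and 9.43, 8.86 and 9.49, and 11.02 and 10.36. It rose postpartum against pregnancy (1.515, adjusted p = 0.0249) and stood above pre-pregnancy (1.325, 0.0228), in its brighter probe set. A second Acacb probe set stood at -0.28 and -0.02 in these comparisons. Without postpartum replicate 1 neither was called (adjusted p = 0.103 and 0.0852), nor was the first without pregnancy replicate 1 (0.0622) or either pre-pregnancy array (0.0732), nor the second with either array from before pregnancy left out (0.185 and 0.104).

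The acyl-CoA synthetase Acsl3 fell in pregnancy (-1.24, adjusted p = 0.0235), with pregnant arrays at 7.14 and 7.98, and at -0.82 without pregnancy replicate 1 (0.0522). That call was also lost with either array from before pregnancy left out (adjusted p = 0.175 and 0.0607). Acsl5, another synthetase, was higher postpartum than before pregnancy (0.52, adjusted p = 0.0319), a call kept with either pregnant array left out and lost with each other (0.0922 to 0.164). Fabp2, an intestinal-type binding protein, was lower postpartum than in pregnancy (-0.97, adjusted p = 0.0387) and than before it (-0.78, 0.0477), and at -0.675 and -0.485 without postpartum replicate 1 (0.125 and 0.145). Both Fabp2 calls were kept with postpartum replicate 2 left out and lost with each other array left out. Of 14 PPARalpha partners and targets outside the oxidation steps, 3 rose and 0 fell in pregnancy (Cd36, Vnn1 and Txnip), and 0 rose and 3 fell postpartum against pregnancy (Angptl4, Vnn1 and Txnip). Cd36, a fatty acid uptake receptor, stood at 8.27 and 7.67, 10.39 and 9.88, and 9.72 and 9.4. It rose 4.48-fold in pregnancy (2.165, adjusted p = 0.00255), a call kept with each array left out. Postpartum Cd36 was still above pre-pregnancy (1.59, 0.0108), a call lost with either array from before pregnancy left out (0.0538 and 0.0633) or postpartum replicate 1 (0.0544). Angptl4, a secreted inhibitor of lipoprotein lipase, stood at 10.98 and 10.93, 11.64 and 11.23, and 9.91 and 9.46. It fell postpartum against pregnancy (-1.75, adjusted p = 0.00471), a call kept with each array left out. Angptl4 was also lower than before pregnancy (-1.27, 0.0098), a call lost with either array from before pregnancy left out (0.113 and 0.064) or postpartum replicate 2 (0.0551). A second, uncalled Angptl4 probe set stood at -0.14 and -0.2 in these comparisons. Vnn1, a pantetheinase, stood at 12.54 and 11.54 in pregnancy against 9.78 and 9.84 before it, and at 8.97 and 9.3 postpartum. Its rise of 2.23 (adjusted p = 0.004) was not called without pre-pregnancy replicate 1 (adjusted p = 0.0585), and its fall of -2.905 postpartum (0.00381) was called with each array left out. Txnip, an inhibitor of glucose uptake, rose by 0.625 in pregnancy (adjusted p = 0.0395), called with either postpartum array left out and with no other, and fell by 1.26 postpartum (0.0102), called with each array left out. The PPARalpha partner Rxra differed by 0.355 in pregnancy (adjusted p = 0.116), -0.17 and 0.185.

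**Figure D4:**
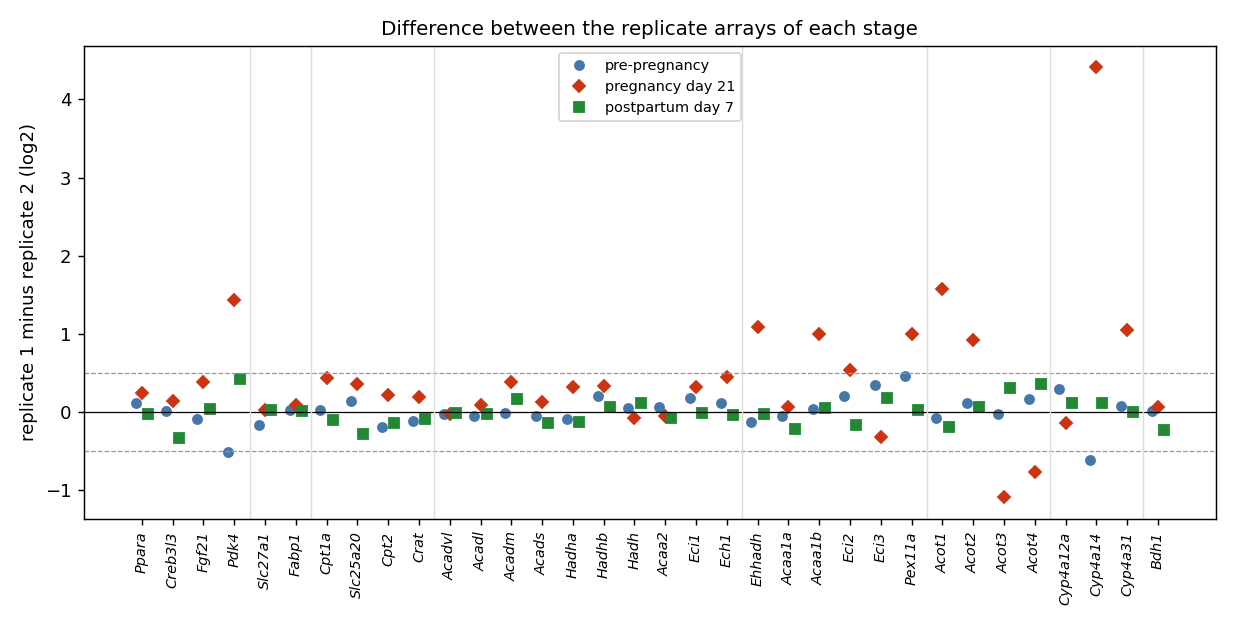
Log2 difference between replicate 1 and replicate 2 (vertical axis) for each of the 34 members, with the 3 stages as circles, diamonds and squares and dashed lines at 0.5 either way. In pregnancy 11 members lie outside the dashed lines, with Cyp4a14 at 4.41, and postpartum 0 do.

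The spread between the pregnant livers was described after the values were seen, as a property of these 2 arrays and with no test. The median gap over the members was 0.325 in pregnancy, against 0.1 before it and 0.11 postpartum, where all genes had 0.14, 0.12 and 0.12. A gap over 0.5 was present in 11 members in pregnancy, in 2 before pregnancy (Pdk4 and Cyp4a14) and in 0 postpartum. Of the 11, pregnancy replicate 1 was the higher in 9: Cyp4a14, Acot1, Pdk4, Ehhadh, Cyp4a31, Acaa1b, Pex11a, Acot2 and Eci2. Replicate 2 was the higher in Acot3 and Acot4. The wide gaps fell in the peroxisomal list (4 of 6), the thioesterases (4 of 4), the omega-oxidation list (2 of 3) and the regulators (1 of 4). Of the 10 mitochondrial enzymes 0 had one, and their widest gap was 0.45. Their median gap in pregnancy was still 0.225, against 0.055 before it and 0.075 postpartum. The carnitine shuttle had a median gap of 0.29 in pregnancy, and all genes 0.14. A fit with 1 pregnant array left out holds no spread between the pregnant livers. It turns a wide gap between them into a difference between stages. For Cyp4a14 in pregnancy this was 2.235 without pregnancy replicate 2 and -2.175 without pregnancy replicate 1. Calls gained in such fits therefore do not measure the spread between these livers.

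Genes of feeding and of the clock differed between the same arrays, and some also between the replicates of other stages. The gaps before pregnancy, in pregnancy and postpartum were 0.95, 0.94 and 0.85 for Elovl6, and 0.21, 0.68 and 1.08 for G6pc. For Nr1d1 they were 0.86, 0.31 and 0.03, and for Pnpla3, widest in pregnancy, 0.84, 3.78 and 0.35. Of 11 measured fasting and feeding genes, 4 were called lower in pregnancy (Elovl6, Me1, Srebf1 and Scd1) and 0 higher, and postpartum against pregnancy 6 were higher (Fasn, Acaca, Acly, Scd1, Elovl6 and Me1) and 0 lower. Without pre-pregnancy replicate 1 the 4 pregnancy calls were lost (adjusted p = 0.129 to 0.258), and without postpartum replicate 1 the 6 postpartum calls were (0.0594 to 0.164). Their mean level was 11.98 and 11.77 (pre-pregnancy), 10.75 and 11.34 (pregnant) and 12.61 and 12.15 (postpartum). Of the 11 genes, 7 were lower in pregnancy replicate 1 than in replicate 2 and 4 were higher (Pck1, G6pc, Scd1 and Me1). The list joins genes of fasting with genes of feeding, so its mean and these counts can mix opposite directions. Pnpla3, a lipase gene that rises with feeding, stood at 6.37 and 10.15 in pregnancy, and Fasn, the fatty acid synthase, at 10.69 and 11.68. Of 14 clock genes, 1 rose and 1 fell in pregnancy (Nr1d1 and Cry1), and the pregnant arrays stood at 7.62 and 5.66 for the activator Arntl and at 10.05 and 11.55 for its target Dbp. Of these 14, 9 were lower in pregnancy replicate 1 and 5 higher (Arntl, Clock, Cry1, Nr1d1 and Nfil3). The list joins activators such as Arntl with targets such as Dbp, so these counts can mix opposite directions. Pck1, G6pc, Pnpla3, Arntl, Clock, Dbp and Nfil3 were not called in any comparison and were named after their values were seen. Their part in the results was not tested. Stage and collection time or feeding cannot be told apart where these differed between groups.

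Some markers of other cell types changed in pregnancy. Of 8 endothelial markers 3 fell in pregnancy (Emcn, Kdr and Tek), and the list's mean level was 8.21 and 7.99 (pre-pregnancy), 7.68 and 7.54 (pregnant) and 7.7 and 7.55 (postpartum). Of 10 Kupffer cell and macrophage markers Timd4 fell, of 8 stellate cell and fibroblast markers Lrat fell, and of 4 neutrophil markers S100a9 and Mpo rose. Marco, on the list of Timd4, was higher in pregnancy but not called (0.655, adjusted p = 0.0695). Postpartum against pre-pregnancy Timd4 was called lower (-0.61, adjusted p = 0.0147) and Marco higher (1.03, 0.0248). The pregnant Lrat arrays stood apart, at 8.64 and 7.51. Mpo was dim, at 4.3 and 4.4 before pregnancy and 4.81 and 4.82 in it. Among 7 hepatocyte markers Asgr1 rose in pregnancy (0.395, adjusted p = 0.0492) and the other 6 were not called. In bulk liver tissue, fewer cells of a type and less RNA per cell cannot be told apart. The part of these markers in the members' results was not tested.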

How the data were processed

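Liver RNA of 6 samples was hybridised to Affymetrix 3' arrays, starting from 250 ng of RNA, per the labels' protocols. The deposited series table holds normalized log2 values made by the authors. RMA and Affymetrix Power Tools are named in the submitters' processing notes, and the sources used here do not give their versions and settings. The table states no scale, and log2 was inferred from its range. The authors' values were used as deposited.

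Of 45101 probe sets, 34945 had exactly 1 gene symbol, 932 had several, 9160 had none and 64 were controls. Each gene kept its brightest probe set, by the mean of the 6 arrays, which gave 18193 genes. limma 3.58.1 in R 4.3.3 fitted a mean per stage over the 6 arrays, with 3 residual and 4.80 prior degrees of freedom, and compared the 3 stages pairwise. Tests were two-sided, Benjamini-Hochberg adjusted over all genes, with a threshold of 0.05, and the procedure was tested on simulated data. All members are named. Other pathway genes and context genes are named where called, and Rxra whatever its values. Pck1, G6pc, Pnpla3, Arntl, Clock, Dbp and Nfil3 were added after their values were seen. Some listed genes are not reported here. Members and lists were chosen with earlier results of these data known. Alternatives were a replicate block, dropping the dim genes (mean below the 40th percentile), quantile normalization or median centring of the deposited values, trended robust variance, means over or single other probe sets, leaving out each array, fitting 2 groups alone, and a threshold of 0.1. Promoter windows are from RefSeq.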

Additional observations from a re-analysis of the deposited data

How the results depend on the processing

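With 2 arrays per stage, most calls were lost in at least 1 fit with an array left out. Such fits have fewer residual degrees of freedom, so a lost call does not by itself show a changed difference. A stage left with 1 array adds no spread of its own, so a gained call does not measure the spread between its samples. Among called members, 0 differences reversed direction in these fits. This was fixed in advance, because the arrays of the stages compared did not overlap for any of these calls. The Bdh1 difference postpartum against pre-pregnancy (-0.47) does not use the pregnant arrays, so leaving those out cannot move it. Leaving out an array of the stages compared gave -0.585 to -0.355. Leaving out each array gave 323 to 1977 genes called in pregnancy against pre-pregnancy (2494 with all arrays), with 2 to 10 members higher and 0 to 3 lower. Postpartum against pregnancy it gave 114 to 528 genes, 1 to 3 members higher and 1 to 6 lower, and postpartum against pre-pregnancy 73 to 1582 genes, 1 to 3 members higher and 0 to 4 lower. The lowest gene counts in both comparisons with pre-pregnancy came without pre-pregnancy replicate 1. A threshold of 0.1 called 4066, 1337 and 2489 genes in the 3 comparisons, and fitting 2 groups alone called 203 genes postpartum against pregnancy. In pregnancy 1 member was lower, not 2, with the replicate block, quantile normalization, centring, trended variance, means over probe sets or 2 groups alone. Without dim genes the count was also 1, because Cyp4a12a was itself left out as dim, and Acot4 was still called. Postpartum against pregnancy the members called lower were 4 after centring, 5 with trended variance or a threshold of 0.1, and 1 with 2 groups alone. Postpartum against pre-pregnancy 2 members were lower with means over probe sets. The cause of the other shifts was not tested. The labels name no pairing of samples by replicate number. Across genes, the differences between replicates 1 and 2 correlated at 0.028 (pre-pregnancy and pregnancy), 0.111 (pre-pregnancy and postpartum) and -0.027 (pregnancy and postpartum). These values cannot exclude a pairing. With the replicate block 2612, 574 and 1567 genes were called. For Cyp4a14 in pregnancy the difference was -2.175 without pregnancy replicate 1 and 2.235 without replicate 2, and postpartum against pregnancy it was 2.72 and -1.69, so its direction reversed. Other probe sets reversed Acacb (-0.28 and -0.02), Scp2 (0.78 in pregnancy, 0.67 postpartum against pre-pregnancy) and Elovl6 in pregnancy (0.09). Dim genes near background, such as Cyp4a12a, are limited by signal.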
